A study of Mus musculus with 9 samples.

Results

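Forkhead (Fox) and Kruppel-like (Klf) factors are 2 families of DNA-binding proteins that turn other genes on or off. The members described here are genes of the count table whose symbol is Fox followed by a letter from a to s and a number, or Klf followed by a number. That gave 60 genes, 43 Fox and 17 Klf, of the 55228 genes in the table. Forkhead proteins bind DNA through a winged helix. Many act as cell-type determinants, and the FOXO group is kept out of the nucleus by AKT when insulin or growth factor signalling is active. Kruppel-like proteins bind GC-rich and CACCC sequences through zinc fingers, as do their relatives the Sp factors, and some of them recruit the repressors CtBP or SIN3A. In epithelia KLF4 is known for barrier formation and exit from the cell cycle, and KLF5 for growth of basal cells.

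The RNA came from HC11 cells, a mouse mammary epithelial line that makes milk protein when given lactogenic hormones, and the study asked what loss of *Vangl2*, a planar cell polarity gene, does to expression in undifferentiated cells. There were 3 lines of 3 cultures each. *WT* is the parental HC11 line, with genotype *WT* and no edit. *KD1* and *KD2* carry the label genotypes *Vangl2* knockout 1 and *Vangl2* knockout 2, and each was made by nucleofection of Cas9 with its own sgRNA and a repair template that places stop codons in the gene, then grown from a single colony. Each *KD* line is therefore 1 clone, a line-to-line difference and the effect of the edit cannot be told apart, and a cloned or nucleofected control was not analysed here. All cultures grew in the same medium with serum, insulin and epidermal growth factor, without dexamethasone or prolactin. Nothing in the labels says that replicates were grown separately, so p-values measure the spread between these samples, which may be technical.

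Depth was 19231428 to 28360592 counts per culture, and a floor of 3 counts stood for 0.0999 to 0.154 CPM, which are counts scaled to a library of fixed size. *Vangl2* had counts of 66, 99 and 86 in *WT*, 75, 48 and 69 in *KD1* and 90, 118 and 90 in *KD2*, a log2 fold change of -0.63 in *KD1* (edgeR adjusted p = 0.0058) and 0.05 in *KD2* (adjusted p = 0.81). An added stop codon need not lower the mRNA, so these counts do not check the labels. Of 9 mammary epithelial markers, 8 were expressed in every line and *Krt19* had no count, and their summed level was 5620 to 6240 CPM in *WT*, 6900 to 7080 in *KD1* and 3420 to 4250 in *KD2*. *KD2* replicate 3 and *WT* replicate 1 stood apart from their replicates, with chi-square per degree of freedom of 17.4 and 22.1 against 1.74 for the other *KD2* pair, and of 13.1 and 10.7 against 3.38 for the other *WT* pair. Counts of called members with each culture left out are in the closing section.

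Of the 60 members, 36 had enough counts to be tested (22 Fox and 14 Klf) among 15253 genes tested. The other 24 were not. Of these, 13 had no count in any culture, among them *Foxa2*, *Foxb1*, *Foxb2*, *Foxd3*, *Foxe1*, *Foxe3*, *Foxi1*, *Foxi2*, *Foxi3*, *Foxl2*, *Foxn4* and *Foxr2*. The remaining 11 did not pass 9 counts in any culture. *Foxa3* and *Foxp3* reached 9, *Foxs1* 8, *Foxp2* and *Foxh1* 7, *Klf15* 5, *Foxr1* 2, and *Foxc2*, *Foxd4*, *Klf14* and *Klf17* 1. In *KD2* replicates 1 and 2 *Foxs1* had 8 and 6 counts, while *KD2* replicate 3 and all *WT* cultures had 0. *Foxa3*, a liver and gut endoderm factor, had 6, 7 and 9 counts in *KD2* and 3, 2 and 2 in *WT*. At this depth the levels of these 24 genes cannot be compared.

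Measured per kilobase of exon, which allows levels of different genes to be compared, the tested members spanned a wide range in *WT*. The highest was *Klf4* at 59.9 ± 2.31 CPM per kb (SD, n = 3), followed by *Klf6* at 47.7 ± 1.25, *Foxk2* at 39.6 ± 0.554, *Foxm1* at 39.2 ± 1.33, *Klf10* at 29.5 ± 2.51 and *Klf13* at 26.1 ± 1.37. *Foxk2* and *Foxm1* lay within their spread of each other. The lowest tested members were *Foxn1* at 0.336 ± 0.0568, *Klf1*, the erythroid factor, at 0.334 ± 0.111 and *Foxl1* at 0.141 ± 0.0825 CPM per kb. Ranks among the 60 members moved most for a few genes. *Foxj1* was 21st in *WT*, 26th in *KD1* and the second highest in *KD2*, at 35.8 ± 4.18 CPM per kb. *Foxf1* was 28th in *WT*, 36th in *KD1* and 9th in *KD2*, and *Foxn1* was 34th in *WT* and 22nd in *KD1*. *Klf5* fell from 11th in *WT* and 8th in *KD1* to 25th in *KD2*.

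**Figure D1:**
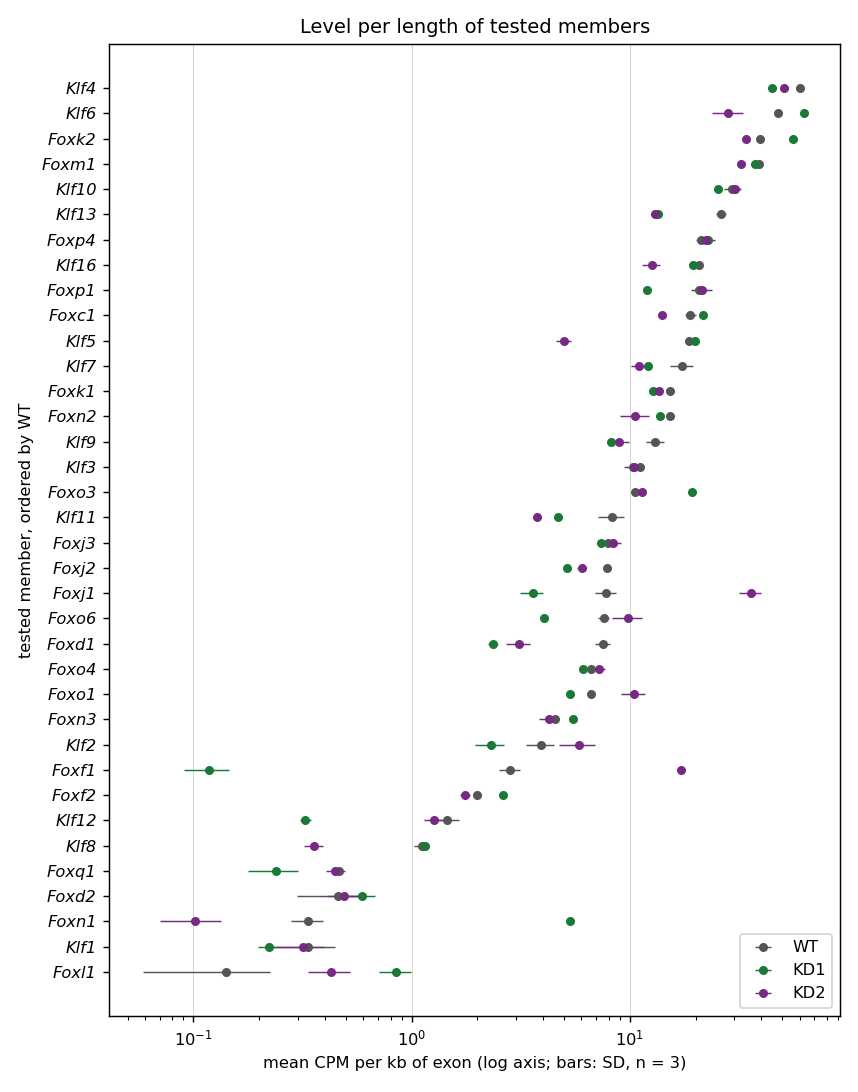
Mean CPM per kilobase of exon (log axis) of the 36 tested members in *WT*, *KD1* and *KD2*, ordered by *WT*, with bars for the SD over 3 cultures. *Klf4* is highest in *WT* at 59.9, and *Foxj1*, *Foxf1* and *Foxn1* are the members whose points lie farthest apart between lines.

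A gene was called when its edgeR quasi-likelihood adjusted p was under 0.05 and its absolute log2 fold change was above 1, and it passed when the adjusted p alone was under 0.05. In *KD1* against *WT*, 2 members were called higher (5.56% of those tested, where 9.34% of all tested genes were) and 4 lower (11.1%, where 7.49% of all genes were). In *KD2* against *WT*, 3 were called higher (8.33%, against 14.5% of all genes) and 6 lower (16.7%, against 6.71%). In *KD2* against *KD1*, 5 were higher (13.9%, against 14.7%) and 5 lower (13.9%, against 8.58%). Each of these shares rests on at most 6 genes. Those called higher in each *KD* line include *Foxl1*, which passed the filter on low counts only through the *KD* cultures. Together 13 members were called in at least 1 comparison and 23 tested members in none. The same share over all genes was not computed, so these 2 numbers are not a trait of the members. *KD1* and *KD2* share the same *WT* cultures, so the values of each line are given side by side.

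By the adjusted p alone, 8 members passed upwards and 17 downwards in *KD1* (22.2% and 47.2%), where 26.9% and 30.0% of all genes did. In *KD2* the numbers were 6 upwards and 17 downwards (16.7% and 47.2%), where 34.0% and 33.3% of all genes passed. Between *KD2* and *KD1*, 14 members were higher and 14 lower (38.9% each), where 34.8% and 33.0% of all genes were. The Klf genes had a lower median than the Fox genes in each line, and this was not tested. As a group their log2 fold changes had a median of -0.47 in *KD1* and -0.61 in *KD2*, while the Fox median was -0.11 and -0.02 and the median of all genes was -0.03 and 0.01. By the adjusted p, *KD1* had 1 of the 14 tested Klf genes higher and 8 lower than *WT*, and *KD2* had 1 higher and 9 lower.

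**Figure D2:**
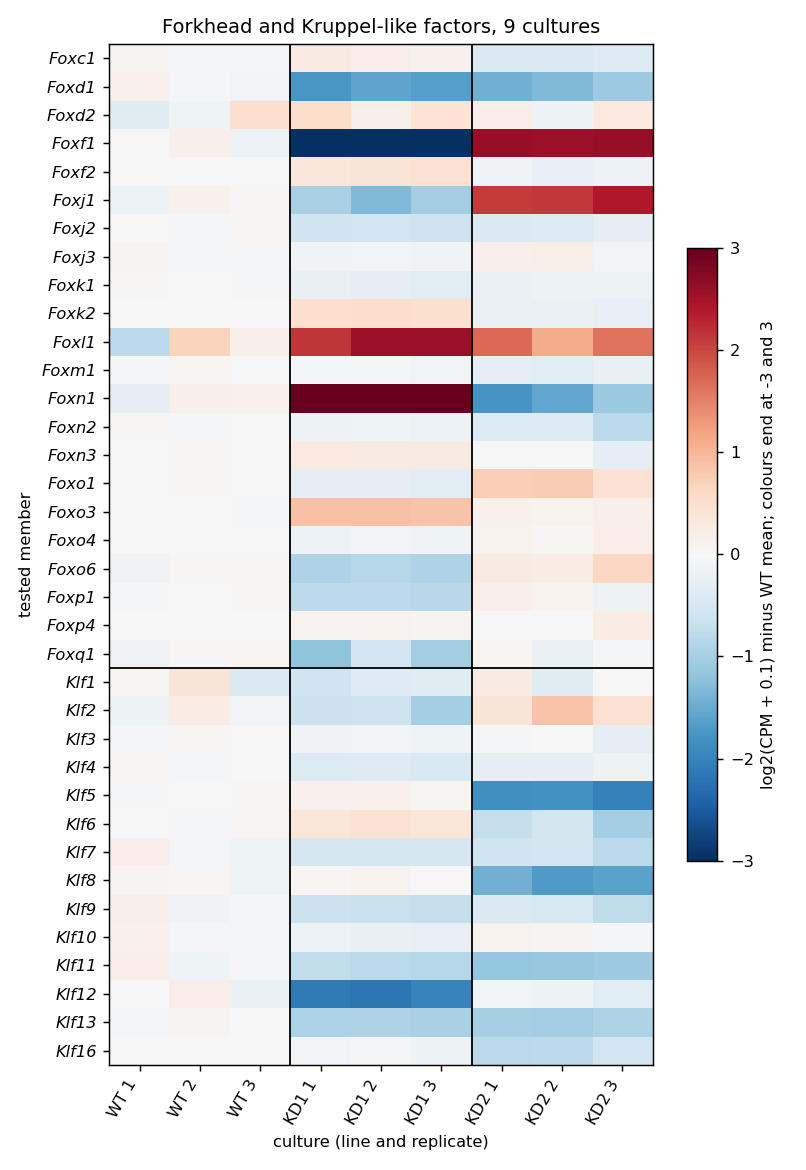
The log2(CPM + 0.1) of each of 36 tested members in the 9 cultures, minus the mean of the 3 *WT* cultures, with colours ending at -3 and 3. *Foxf1*, *Foxj1* and *Foxn1* have opposite colours in *KD1* and *KD2*, and the strongest colours are those of *Foxf1* and *Foxn1*.

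*Foxf1* and *Foxl1* are neighbouring genes on the plus strand of chromosome 8 of GRCm38 (*Foxf1* from 121084386 to 121088144, ENSMUSG00000042812, and *Foxl1* from 121127940 to 121130644, ENSMUSG00000097084), with 39795 bases between them. FOXF1 drives development of the mesenchyme of lung and gut, and FOXL1 marks mesenchymal cells that lie under the gut epithelium. *Foxf1* counts were 134, 189 and 124 in *WT*, 6, 9 and 7 in *KD1* and 1050, 1220 and 849 in *KD2*. All *KD1* cultures lay below and all *KD2* cultures above every *WT* culture. The mean level was 6.83 ± 0.753 CPM in *WT*, 0.286 ± 0.0663 in *KD1* and 41.6 ± 0.924 in *KD2* (SD, n = 3). Against *WT*, *Foxf1* changed by a log2 fold of -4.56 ± 0.18 in *KD1* (SE, adjusted p = 5.4e-11) and 2.60 ± 0.0891 in *KD2* (adjusted p = 3.1e-11). The lines differed by 7.17 ± 0.143 (adjusted p = 3.7e-14), or 144-fold. The *KD1* counts behind this fold lay near the floor of 3 counts per culture. In *KD1* 0 cultures reached the cutoff of the filter on low counts. With at least 10 counts in every culture *Foxf1* was not tested. The exons of *Foxf1* share 98 bases with *Gm27530* on the other strand, and the library kit does not mark strand.

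*Foxl1* was lower in count, at 3, 15 and 8 in *WT*, 50, 64 and 63 in *KD1* and 33, 26 and 26 in *KD2*. Both *KD* lines lay above every *WT* culture and *KD1* lay above *KD2*. *Foxl1* passed the filter on low counts through the *KD* cultures, so it could be tested only because it was higher there. Against *WT* it is therefore given as a level, which was 0.381 ± 0.223 CPM in *WT*, 2.3 ± 0.394 in *KD1* and 1.16 ± 0.256 in *KD2* (SD, n = 3). *KD2* differed from *KD1* by a log2 fold of -1.01 ± 0.259 (adjusted p = 0.0034), a call that 5 of the 15 alternative settings lost. The tested genes within 2 Mb had median log2 fold changes of -0.39 in *KD1* and -0.27 in *KD2* around *Foxl1*, and of -0.31 and -0.25 around *Foxf1*. The third gene of this cluster, *Foxc2*, had at most 1 count in any culture.

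Of the fibroblast markers, *Pdgfrb* above all was higher in *KD2*, as *Foxf1* was. The summed level of the 8 fibroblast markers was 17.0 to 23 CPM in *WT*, 8.07 to 10.1 in *KD1* and 90.1 to 99.9 in *KD2*. In *KD2* *Pdgfrb* alone had a mean of 66.8 CPM, against 0.823 in *WT* and 0.142 in *KD1*. *Pdgfra* was 16.4 CPM in *KD2*, 7.96 in *WT* and 8.4 in *KD1*, and *Col1a2* was 3.09, 1.17 and 0. *Col1a1* was 4.38 CPM in *KD2*, 7.03 in *WT* and 0.571 in *KD1*, and *Col3a1* was 2.72, 3.03 and 0.0131. *Dcn*, *Lum* and *Thy1* had at most 6 counts in any culture. The part of these genes in the *Foxf1* difference was not tested, and in bulk RNA fewer cells of a type and less RNA per cell cannot be told apart. Endothelial markers (6 genes, with *Emcn* at 0) summed to 2.05 to 2.49 CPM in *WT*, 4.87 to 5.62 in *KD1* and 1.43 to 2.1 in *KD2*. Leukocyte markers were 6 genes, with *Adgre1* at 0. Their sum was 0.0976 to 0.2 CPM in *WT*, 0.275 to 0.591 in *KD1* and 1.33 to 1.56 in *KD2*. Of these, *Lyz2* had 27 to 41 counts in *KD2*, 0 to 1 in *WT* and 0 in *KD1*. *Csf1r* had 6 to 13 counts in *KD1*, 1 to 2 in *WT* and 0 to 3 in *KD2*. Of the erythroid genes, *Hbb-bs* and *Hba-a1* had at most 2 counts in any culture.

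*Foxd1*, a factor of the kidney stroma and retina, lies on the plus strand of chromosome 13 (98354242 to 98359305, ENSMUSG00000078302). Its CPM was 41.5, 36.8 and 35.8 in *WT*, 11.3, 12.6 and 12.0 in *KD1* and 13.9, 15.2 and 17.9 in *KD2*. Both *KD* lines lay below every *WT* culture. On the log2 scale the change was -1.67 ± 0.0958 for *KD1* (adjusted p = 3.2e-09) and -1.28 ± 0.0937 for *KD2* (adjusted p = 3.9e-08). In *KD2* the median of the 590 tested genes of chromosome 13 was -0.66 and that of the 35 tested genes within 2 Mb was -0.74, while the medians in *KD1* were -0.05 and -0.08.

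*Foxd1* and *Foxn1* were the members called in both *KD* lines whose promoters were held by the RefSeq table for GRCm38.p6, and both are printed 5′ to 3′ on the strand of the gene. Each window runs from 250 bases before to 50 after the start annotated by RefSeq. That start differs from the GENCODE positions given here, by which the whole *Foxn1* window lies before the gene (78357577 to 78386558). Capitals mark matches to the CACCC box (CACCC) or the GC box (GGGCGG), which Klf and Sp proteins are known to bind, read on both strands, and no matches overlap. The *Foxd1* window lies at chr13:98353995-98354294 and the *Foxn1* window, on the minus strand, at chr11:78386559-78386858.
*Foxd1*: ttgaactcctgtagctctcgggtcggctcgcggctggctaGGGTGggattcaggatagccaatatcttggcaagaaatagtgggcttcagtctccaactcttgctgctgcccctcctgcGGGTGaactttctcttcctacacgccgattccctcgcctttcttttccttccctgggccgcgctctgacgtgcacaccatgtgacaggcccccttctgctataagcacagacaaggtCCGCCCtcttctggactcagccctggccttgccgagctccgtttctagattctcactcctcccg
*Foxn1*: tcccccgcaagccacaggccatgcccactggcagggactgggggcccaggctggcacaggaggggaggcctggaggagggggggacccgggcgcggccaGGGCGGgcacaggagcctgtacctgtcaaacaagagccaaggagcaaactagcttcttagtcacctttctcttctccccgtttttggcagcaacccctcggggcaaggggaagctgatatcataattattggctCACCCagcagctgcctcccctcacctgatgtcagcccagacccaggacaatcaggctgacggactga
The *Foxd1* window was 57.7% GC and held 3 matches, and that of *Foxn1* was 62.7% GC and held 2. Neither held the forkhead core GTAAACA, the AP-1 site TGACTCA or the E-box CACGTG. Of 32851 promoter windows of this length in the table, 57.5% held CACCC and 35.7% GGGCGG, while 3.65% held GTAAACA, 5.2% TGACTCA and 7.15% CACGTG. The table had 46 windows for 40 of the 60 members, and among these 73.9% held CACCC, 73.9% GGGCGG, 2.17% GTAAACA, 4.35% TGACTCA and 10.9% CACGTG. A match is a description of letters and not a measured site.

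The other tested members of the FOXC, FOXD and FOXF groups were called in no comparison. *Foxc1*, a factor of eye and mesenchyme development that is also high in basal breast epithelium, changed by a log2 fold of 0.19 ± 0.0601 in *KD1* (adjusted p = 0.013) and -0.42 ± 0.0607 in *KD2* (adjusted p = 3.2e-05). *Foxf2* rose by 0.40 ± 0.109 on the log2 scale in *KD1* and was -0.19 ± 0.114 in *KD2*, where the adjusted p was 0.16. *Foxd2* had 17 to 47 counts in the 9 cultures and passed in neither line. *Foxq1*, the only tested member of the FOXQ, FOXR and FOXS groups, had 41, 58 and 48 counts in *WT* and 25, 38 and 26 in *KD1*, a log2 fold change of -0.97 ± 0.20 (adjusted p = 0.00092), just short of a call. Its exons share 3200 bases with *A530084C06Rik* on the other strand, so its reads are uncertain.

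*Foxn1*, the factor behind the nude mouse, is needed in thymic epithelium and in hair keratinocytes. It lies on the minus strand of chromosome 11 (78357577 to 78386558, ENSMUSG00000002057), and its promoter is the second sequence printed above. Its counts were 17, 30 and 24 in *WT*, 450, 438 and 426 in *KD1* and 6, 9 and 9 in *KD2*. *KD1* lay above and *KD2* below every *WT* culture. *Foxn1* changed by a log2 fold of 3.96 ± 0.14 in *KD1* (adjusted p = 1.7e-11) and -1.75 ± 0.261 in *KD2* (adjusted p = 4.3e-05), and *KD2* differed from *KD1* by -5.71 ± 0.168 (adjusted p = 1.6e-12). The *KD2* counts were 2 to 3 times the floor of 3 counts per culture.

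*Foxm1*, which turns on the genes of mitosis, was the highest tested FOXM or FOXN member. Its CPM was 221, 234 and 222 in *WT*, 217, 217 and 212 in *KD1* and 183, 181 and 193 in *KD2*. *KD2* lay below every *WT* culture, with a log2 fold change of -0.28 ± 0.0533 (adjusted p = 0.00035), and in *KD1* it was -0.07 ± 0.0532 (adjusted p = 0.29). Of 25 cell division genes known as FOXM1 targets, all tested, 0 were called by edgeR in any comparison, and also 0 by DESeq2. Of all genes, 9.34% were called higher and 7.49% lower in *KD1*, and 14.5% and 6.71% in *KD2*. Between *KD2* and *KD1* it was 14.7% and 8.58%. By the adjusted p 9 of the 25 targets were higher and 7 lower in each *KD* line. Of all genes 26.9% were higher and 30.0% lower in *KD1*, and 34.0% and 33.3% in *KD2*. At an unadjusted p under 0.05, 10 of the 25 targets were higher and 7 lower in *KD1*, and 9 and 8 in *KD2*. Among these *Kif20a* was 0.91 ± 0.0663 and *Skp2* -0.85 ± 0.0714 in *KD2*, and *Mki67* was 0.04 ± 0.0814 in both lines. *Foxn3*, a checkpoint factor, rose by 0.27 ± 0.0693 in *KD1*, and *Foxn2* fell by 0.52 on the log2 scale in *KD2* (SE 0.0866).

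*Foxj1*, the factor that switches on motile cilia genes, lies on the minus strand of chromosome 11 (116330704 to 116335399, ENSMUSG00000034227). Its counts were 349, 559 and 428 in *WT*, 278, 206 and 243 in *KD1* and 2155, 2644 and 2166 in *KD2*. In CPM this was 20.4 ± 2.29, 9.39 ± 1.14 and 93.9 ± 11 (SD, n = 3), with no overlap between the lines. Against *WT* the log2 fold change of *Foxj1* was -1.12 ± 0.119 in *KD1* (adjusted p = 2.1e-06) and 2.20 ± 0.105 in *KD2* (adjusted p = 6.3e-10), and *KD2* exceeded *KD1* by 3.32 ± 0.112 (adjusted p = 7.3e-12). Of 20 motile cilia genes, 6 were tested, and *KD1* had 2 and *KD2* had 4 of them called higher, with 0 lower in either line by edgeR or DESeq2. By the adjusted p alone, and at an unadjusted p under 0.05, 2 were lower in *KD1* and 0 in *KD2*. Over the 6 the median was 0.60 in *KD1* and 1.52 in *KD2* (log2), against -0.03 and 0.01 over all genes. *Dnaic2* and *Tekt2* are among the 6 and passed the filter on low counts only through *KD* cultures where they were higher. Of all genes 9.34% were called higher in *KD1* and 14.5% in *KD2*. With at least 10 counts in every culture, 1 was called in *KD1* and 2 in *KD2*, since *Dnaic2* and *Tekt2* were then not tested.

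*Dnaic2*, a dynein intermediate chain of the cilium, averaged 0.216 ± 0.0709 CPM in *WT*, 0.397 ± 0.142 in *KD1* and 6.58 ± 0.315 in *KD2*. It passed the filter on low counts only through *KD2*, so it could be tested only because it was high there, and it is given as a level. *Dnah11*, a dynein heavy chain, was higher in both lines, by 4.19 ± 0.118 in *KD1* and 3.06 ± 0.127 in *KD2* on the log2 scale. *Tekt2*, a tektin of the axoneme, averaged 0.461 ± 0.165 CPM in *WT*, 1.08 ± 0.158 in *KD1* and 1.5 ± 0.125 in *KD2*. It passed the filter on low counts only with the *KD* cultures, since 2 *WT* cultures reached the cutoff. *Tekt2* too is therefore given as a level. *Dnah11* was thus called higher also in *KD1*, the line in which *Foxj1* was lower, and its difference between the lines was -1.13 ± 0.0839 (adjusted p = 3.5e-08). *Tekt2* is counted as called higher in both lines, with the limit of the filter just given. The 14 genes that could not be tested included *Dnah5*, *Hydin*, *Spag17* and *Rsph1*, which are also parts of the motile axoneme.

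The other FOXJ and FOXK members moved less. *Foxk2*, which with FOXK1 restrains autophagy genes, had 205, 211 and 208 CPM in *WT*, 295, 302 and 290 in *KD1* and 182, 180 and 176 in *KD2*, with no overlap between the lines. On the log2 scale *Foxk2* changed by 0.51 ± 0.0501 in *KD1* (adjusted p = 1.1e-06) and -0.21 ± 0.0503 in *KD2* (adjusted p = 0.0020). *Foxj2* fell by 0.60 in *KD1* and by 0.39 in *KD2* on the log2 scale, and *Foxk1* fell by 0.27 and 0.17. *Foxj3* passed in neither line. Exon bases shared with other genes were also found for *Foxj2* (158 with Gm26826, other strand), *Foxm1* (144 with Tex52 and 97 with Gm44596, same strand), *Klf3* (404 with Gm20033, other strand) and *Foxf2* (98 with Gm27516, other strand).

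The FOXO factors, which restrain growth and respond to insulin and stress, did not move together. *Foxo6*, the family member best known from brain, had 18.5, 20.4 and 20.6 CPM in *WT*, 10.4, 10.9 and 10.4 in *KD1* and 23.5, 23.3 and 30.5 in *KD2*. *KD1* lay below and *KD2* above every *WT* culture. *Foxo6* changed by a log2 fold of -0.91 ± 0.107 in *KD1* (adjusted p = 5.9e-06) and 0.37 ± 0.10 in *KD2* (adjusted p = 0.0048), and the lines differed by 1.28 ± 0.105 (adjusted p = 9.2e-08). *Foxo1* was -0.32 ± 0.0801 in *KD1* (adjusted p = 0.0040) and 0.65 ± 0.0786 in *KD2* (adjusted p = 5.6e-06), and its exons share 674 bases with *Gm20402* on the other strand. *Foxo3* was 0.87 ± 0.0525 in *KD1* (adjusted p = 5.3e-09) and 0.12 ± 0.0528 in *KD2* (adjusted p = 0.057). *Foxo4*, on the X chromosome, passed in neither line.

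Of 26 known FOXO targets 22 were tested. *KD1* had 1 of them called higher and 1 lower, and *KD2* had 3 in each direction, and the medians were -0.13 and -0.04. Of all genes, 9.34% were called higher and 7.49% lower in *KD1*, and 14.5% and 6.71% in *KD2*. *Pdk4*, a kinase that holds back pyruvate oxidation, averaged 0.531 ± 0.128 CPM in *WT* and 4.23 ± 0.252 in *KD1*. It passed the filter on low counts only with the *KD1* cultures, since 2 *WT* and 0 *KD2* cultures reached the cutoff. *Pdk4* could thus be tested only because it was high in *KD1*, and it is given as a level. It is the target counted as called higher in *KD1*. It was also called lower in *KD2*, where each culture was under the floor of 3 counts, so no fold is given. *Txnip*, an inhibitor of thioredoxin and of glucose uptake, was -2.07 ± 0.0661 in *KD1* and -0.76 ± 0.0628 in *KD2*, and *Sesn2*, a stress-induced sestrin, -0.46 ± 0.0805 and -1.51 ± 0.0843. Of 23 tested regulators of FOXO (PI3K and AKT kinases, 14-3-3 proteins and others), 2 were called against *WT*, both in *KD1* (medians of -0.07 in *KD1* and -0.17 in *KD2*). *Sgk1*, a kinase that phosphorylates FOXO3, fell by 1.33 on the log2 scale (SE 0.0658), and *Sfn*, the 14-3-3 sigma protein, rose by 1.27 ± 0.085. Between *KD2* and *KD1*, 1 regulator was called higher (*Pik3r1*, named after its value was seen) and 1 lower (*Sfn*).

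Of the FOXP factors 2 were tested. *Foxp1*, a repressor that acts in many tissues, was -0.80 ± 0.0711 in *KD1* (adjusted p = 3.5e-07) and 0.04 ± 0.0704 in *KD2* (adjusted p = 0.63), and the lines differed by 0.84 ± 0.0711 (adjusted p = 1.3e-07). Its exons overlap those of *Gm49348* and *Gm20696* on the same strand. *Foxp4* passed in none of the 3 comparisons.

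**Figure D3:**
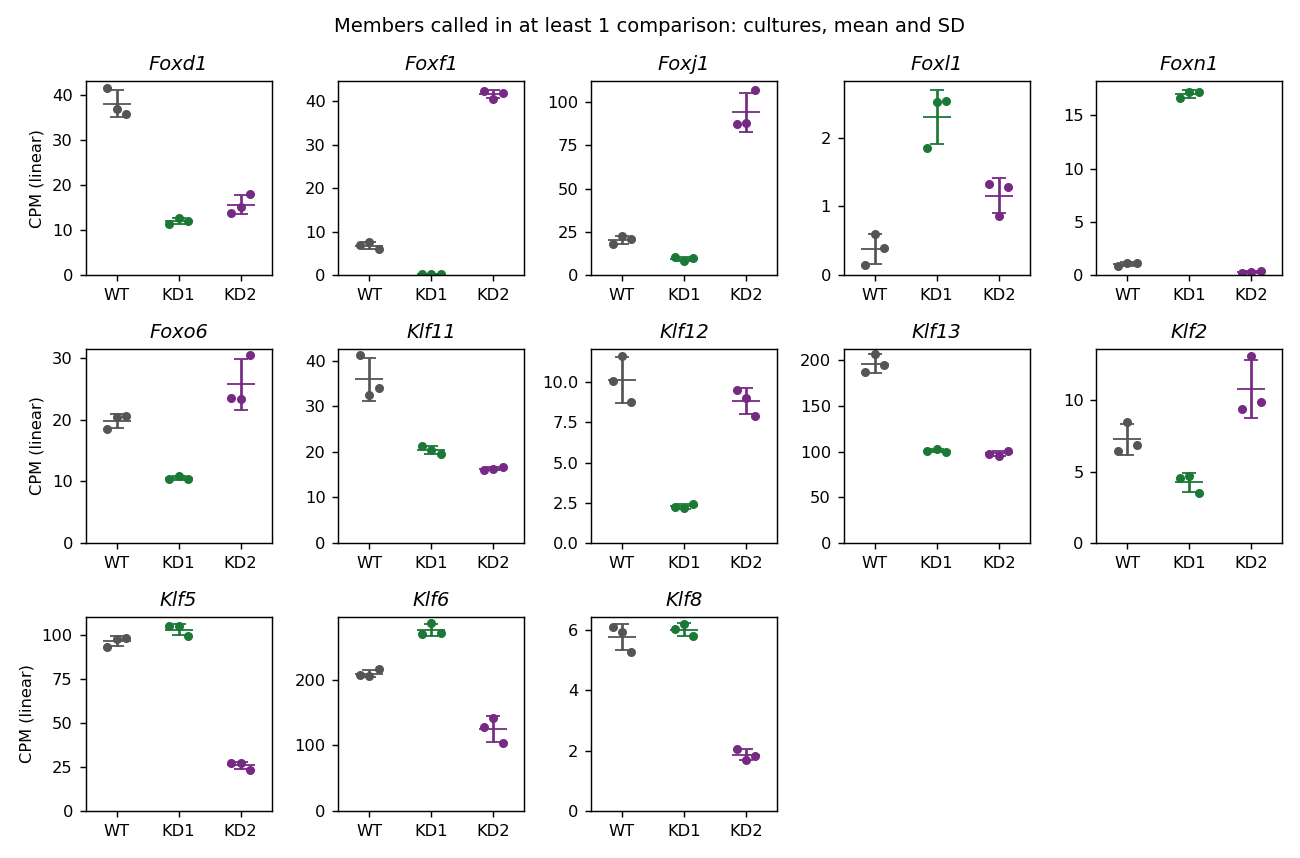
CPM (linear axis) of the 13 members called in at least 1 comparison, with points for cultures, a horizontal mark for the mean and bars for the SD (n = 3). *Foxf1*, *Foxj1* and *Foxn1* lie on opposite sides of *WT* in *KD1* and *KD2*, *Foxd1* lies below *WT* in both and *Foxl1* above *WT* in both.

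Among the Kruppel-like factors that bind CtBP (*Klf3*, *Klf8* and *Klf12*), each *KD* line had 1 member called lower. *Klf12*, a repressor known from the control of AP-2 alpha, had 197, 290 and 179 counts in *WT*, 61, 55 and 60 in *KD1* and 235, 270 and 161 in *KD2*. *KD1* lay below every *WT* and *KD2* culture, and the CPM of *KD2* overlapped that of *WT*. *Klf12* changed by a log2 fold of -2.16 ± 0.138 in *KD1* (adjusted p = 1.1e-08) and -0.21 ± 0.117 in *KD2* (adjusted p = 0.14), and *KD2* exceeded *KD1* by 1.95 ± 0.139 (adjusted p = 2.1e-08).

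*Klf8*, a repressor linked to invasion of epithelial cancer cells, had 119, 148 and 108 counts in *WT*, 163, 158 and 144 in *KD1* and 51, 51 and 37 in *KD2*. *KD2* lay below all other cultures. On the log2 scale *Klf8* changed by -1.63 ± 0.135 in *KD2* (adjusted p = 1.3e-07) and 0.06 ± 0.115 in *KD1* (adjusted p = 0.68), and the lines differed by -1.69 ± 0.132 (adjusted p = 5.7e-08). *Klf3* passed in none of the 3 comparisons.

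*Klf5* was the member of KLF group 2, the activators, that fell most in *KD2*. Its CPM was 93.1, 97.9 and 98.6 in *WT*, 105, 105 and 99.4 in *KD1* and 27.0, 27.3 and 23.5 in *KD2*. *KD2* lay below every other culture, with a log2 fold change of -1.89 ± 0.0686 (adjusted p = 5e-11), a 3.71-fold fall. In *KD1* it was 0.10 ± 0.0637 (adjusted p = 0.22), and *KD2* differed from *KD1* by -1.99 ± 0.0684 (adjusted p = 8.6e-12). The summed epithelial markers given above were also lowest in *KD2*. The largest parts of that sum were *Krt5* (1090 CPM in *KD2* against 2120 in *WT*) and *Krt14* (819 against 1530), while *Krt8* was higher in *KD2* (268 against 158) and *Krt18* was 136 against 125. The part of these genes in the *Klf5* difference was not tested.

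*Klf4* had 190, 175 and 183 CPM in *WT*, 138, 139 and 132 in *KD1* and 152, 152 and 163 in *KD2*, and both *KD* lines lay below every *WT* culture. For *Klf4* the log2 fold change was -0.42 ± 0.0567 in *KD1* (adjusted p = 2.1e-05) and -0.23 ± 0.0566 in *KD2* (adjusted p = 0.0023). *Klf6*, an injury response factor, went in opposite directions, with 207, 205 and 216 CPM in *WT*, 270, 287 and 271 in *KD1* and 128, 142 and 103 in *KD2*. Its change on the log2 scale was 0.40 ± 0.0902 in *KD1* (adjusted p = 0.0018) and -0.75 ± 0.0914 in *KD2* (adjusted p = 6.4e-06), and the lines differed by -1.15 ± 0.0916 (adjusted p = 7.3e-08). *KD2* replicate 3 was the lowest *Klf6* culture.

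*Klf2*, known from endothelium under flow, moved the other way from *Klf6*. Its counts were 126, 211 and 140 in *WT*, 123, 119 and 87 in *KD1* and 232, 394 and 200 in *KD2*. In CPM, *KD1* lay below and *KD2* above every *WT* culture. The log2 fold change was -0.78 ± 0.167 in *KD1* (adjusted p = 0.0012) and 0.57 ± 0.152 in *KD2* (adjusted p = 0.0042), and the lines differed by 1.35 ± 0.159 (adjusted p = 4e-06). *Klf7*, a factor of neurons, was -0.52 ± 0.0838 in *KD1* and -0.66 ± 0.0841 in *KD2*, with 3196 bases of its exons shared with *Gm26649* on the other strand. *Klf1* had 7 to 17 counts in the 9 cultures and passed in none of the 3 comparisons.

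KLF group 3 holds repressors that recruit SIN3A. *Klf13* had 187, 207 and 195 CPM in *WT*, 101, 103 and 99.9 in *KD1* and 97.7, 95.8 and 101 in *KD2*. Both *KD* lines lay below every *WT* culture, and the *KD1* and *KD2* ranges overlapped. The log2 fold change was -0.96 ± 0.0571 in *KD1* (adjusted p = 4.8e-09) and -1.0008 ± 0.0572 in *KD2* (adjusted p = 3.6e-09), so the call in *KD2* alone rests on the limit of 1 and was lost under 10 of the 15 alternative settings. Between the lines *Klf13* differed by -0.04 ± 0.0572 (adjusted p = 0.52).

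*Klf11* and *Klf10* are induced by TGF-beta. *Klf11* had 41.3, 32.4 and 34.0 CPM in *WT*, 21.2, 20.3 and 19.6 in *KD1* and 16, 16.2 and 16.7 in *KD2*. The 3 lines did not overlap. The log2 fold change was -0.82 ± 0.0876 in *KD1* (adjusted p = 2.4e-06) and -1.14 ± 0.0897 in *KD2* (adjusted p = 8.4e-08). *Klf10* had 135, 117 and 117 CPM in *WT*, 109, 106 and 103 in *KD1* and 132, 130 and 117 in *KD2*, with a log2 fold change of -0.22 ± 0.0706 in *KD1* (adjusted p = 0.017) and 0.04 ± 0.0704 in *KD2* (adjusted p = 0.67). *Klf9*, a gene induced by glucocorticoids, was -0.67 ± 0.0866 in *KD1* and -0.55 ± 0.0863 in *KD2*, and *Klf16* was -0.09 ± 0.0686 and -0.73 ± 0.0704.

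**Figure D4:**
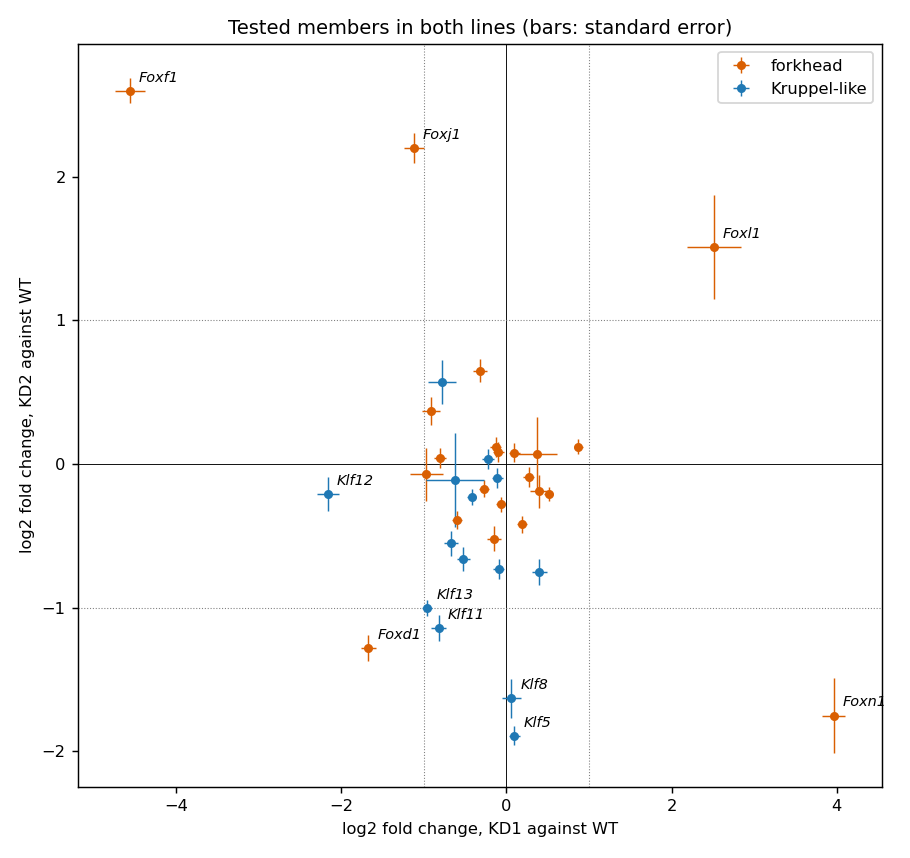
Log2 fold change against *WT* of the 36 tested members in *KD1* (x axis) and *KD2* (y axis), with bars for the standard error and dotted lines at -1 and 1; names mark members called against *WT* in either line. Both axes share the same 3 *WT* cultures, and *Foxf1*, *Foxj1* and *Foxn1* lie in the corners of opposite sign.

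In *KD2* the tested genes of 3 chromosomes were low as a whole, with median log2 fold changes of -0.66 on chromosome 13 (590 genes), -0.47 on chromosome 14 (494) and -0.63 on the X chromosome (449), against 0.01 over all genes. There were 9 tested members on them, and 3 of the 6 members called lower in *KD2* (*Foxd1*, *Klf5* and *Klf8*) were among these. The same share over all genes called lower in *KD2* was not computed, so this number is not a trait of the members. For *Foxd1*, *Klf5* and *Klf8* the log2 fold changes were -1.28, -1.89 and -1.63. The medians of the tested genes within 2 Mb were -0.74, -0.59 (only 6 genes for *Klf5*) and -0.75. A call lower needs a log2 fold change under -1, and all of these medians are above -1. That the 3 members lay below them therefore followed from the call. *Klf6* at -0.75 lay near the chromosome median, and the 7 tested genes within 2 Mb of it had a median of -1.30. *Foxq1*, *Foxf2* and *Foxc1*, at -0.07, -0.19 and -0.42, lay above the median of chromosome 13, as *Klf12* at -0.21 did on chromosome 14 and *Foxo4* at 0.12 on the X chromosome. Between *KD2* and *KD1* the medians were -0.61 on chromosome 13, -0.47 on chromosome 14 and -0.53 on the X chromosome. The part of the chromosome in these members' differences was not tested.

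**Figure D5:**
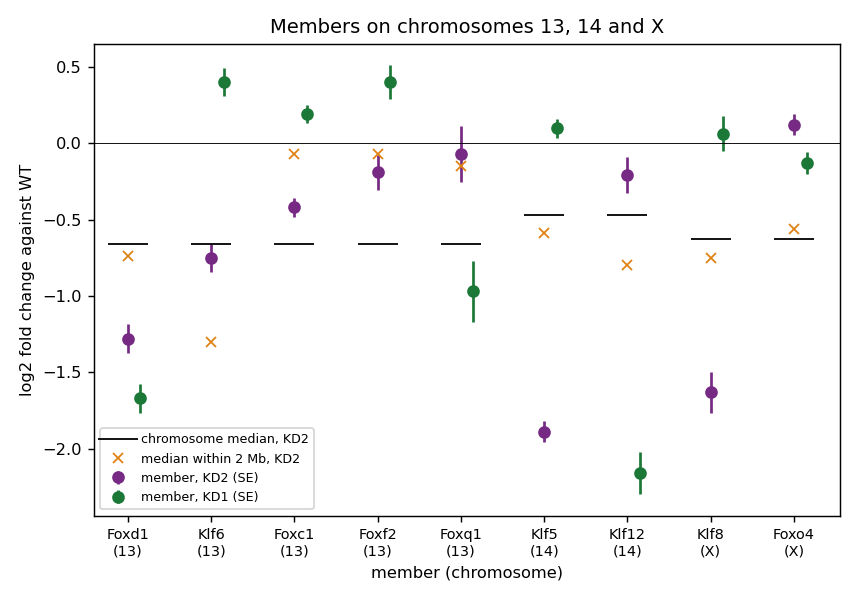
Log2 fold change against *WT*, with bars for the standard error, of the 9 tested members on chromosomes 13, 14 and X in *KD2* and *KD1*, beside the *KD2* median of the chromosome (line) and of tested genes within 2 Mb (cross). *Foxd1*, *Klf5* and *Klf8* lie below both medians in *KD2*.

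The Sp factors, which share the zinc fingers of the Klf proteins, included 7 tested genes of 9, of which 2 were called lower in each *KD* line and 0 higher by edgeR or DESeq2, where 7.49% of all genes were called lower in *KD1* and 6.71% in *KD2*. By the adjusted p 6 were lower and 0 higher in each line, where 30.0% and 33.3% of all genes were lower, and at an unadjusted p under 0.05 1 was higher in each. *Sp8*, a factor of limb and brain patterning, averaged 13 ± 0.57 CPM in *WT*, 1.24 ± 0.223 in *KD1* and 5.15 ± 0.0404 in *KD2*, with log2 fold changes of -3.38 ± 0.132 and -1.34 ± 0.107. *Sp9* was -1.31 ± 0.115 and -1.24 ± 0.115. The median of the tested Sp factors was -0.44 in *KD1* and -0.67 in *KD2*. Of 18 co-regulators and ubiquitin ligases of Klf proteins, *Sap30*, a subunit of the SIN3A complex, was called lower in both lines (-1.15 ± 0.0884 and -1.20 ± 0.0889), and *Kat2b*, an acetyltransferase, was called higher in *KD2* (1.32 ± 0.0875).

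Of 17 epithelial genes known as KLF4 or KLF5 targets 12 were tested, and *KD1* had 6 of them called higher and 0 lower by edgeR and by DESeq2 (11 and 1 by the adjusted p alone and at an unadjusted p under 0.05), where 9.34% and 7.49% of all genes were called. *KD2* had 2 called in each direction, where 14.5% and 6.71% of all genes were. Over the 12 the median was 0.88 in *KD1* and -0.27 in *KD2* (log2). The list carries no direction of regulation, so these counts and medians do not measure the activity of KLF4 or KLF5. *Klf4* and *Klf5* themselves were -0.42 and 0.10 in *KD1* and -0.23 and -1.89 in *KD2* (log2). Their part in the listed genes was not tested. *Lama3*, a chain of the basement membrane laminin-332, averaged 77.7 ± 1.6 CPM in *WT*, 718 ± 10.7 in *KD1* and 27.7 ± 0.715 in *KD2*, with log2 fold changes of 3.21 ± 0.055 and -1.48 ± 0.0551. *Fgfbp1*, which releases fibroblast growth factors from the matrix, was 2.94 ± 0.165 and -1.48 ± 0.179, and *Ptges*, prostaglandin E synthase, stood at 1.49 ± 0.109 CPM in *KD1* and 1.33 ± 0.35 in *KD2* from no more than 3 counts in any *WT* culture. *Ptges* passed the filter on low counts only through the *KD* lines and is among the genes counted as called higher in both.

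Of 24 immediate early genes of serum and growth factor signalling, all tested, *KD1* had 4 called higher and 2 lower, and *KD2* had 1 called in each direction, with medians of 0.32 and -0.10 and the same shares of all genes as above. *Egr2* was -2.57 ± 0.29 in *KD1* and 0.42 ± 0.21 in *KD2* (adjusted p = 0.090). *Ier3* rose by 2.40 ± 0.101 in *KD1*, while *KD2* was at 0.10 ± 0.0999 (adjusted p = 0.38). *Ccn1*, a matrix protein, was 1.60 ± 0.0782 and 1.88 ± 0.0787. *Klf2*, *Klf4*, *Klf6* and *Klf10* are themselves known to answer such signals within hours, and their own values, given above, differed from each other in sign in both lines.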

How the data were processed

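RNA-seq counts of 9 cultures of undifferentiated HC11 cells were analysed, 3 each of *WT*, *KD1* and *KD2*, with line and replicate taken from the sample labels. The table deposited by the authors holds raw read counts per gene. Their notes name fastp for trimming, HISAT2 with GRCm38 for mapping and featureCounts for counting. Tool versions and the strand setting are not given in the sources used here. The kit does not mark strand.

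All genes were tested in R 4.3.3 with the quasi-likelihood functions of edgeR 4.0.16, after TMM scaling and the package's filter on low counts. A single fit held the 9 cultures and no block. Benjamini-Hochberg adjustment ran over all 15253 genes that passed. Calls needed adjusted p under 0.05 together with a log2 fold change beyond 1 in size, and standard errors were derived from fold change and F. CPM are counts over the TMM-adjusted library size. The script was tested on simulated data. Positions and exon lengths came from the GENCODE annotation of GRCm38, whose release differs from that in the paper's methods. Intervals and floors cover counting error only.

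Some genes of the name pattern and some marker genes are not reported here. The members and gene lists were chosen with earlier results of these data known. Values per culture are given for members called in any comparison and for the 6 members with the highest *WT* level per kb, and of each list at most 3 called members with the largest change are named, beside a few others chosen after their values were seen (*Kif20a*, *Skp2*, *Mki67*). Counts of *Foxq1*, *Foxs1* and *Foxa3*, which are outside this rule, were added after they were seen. The 15 alternatives were another size factor, DESeq2 1.42.0, 2 filters, a replicate block, only the 6 cultures compared, and each culture left out.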

Additional observations from a re-analysis of the deposited data

Results flagged for a closer look

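The log2 fold changes of 10 members differed between *KD2* and *KD1* by the test of that difference (edgeR quasi-likelihood test, adjusted p under 0.05 and absolute difference above 1). *KD2* was higher than *KD1* by 7.17 for *Foxf1*, 3.32 for *Foxj1*, 1.95 for *Klf12*, 1.35 for *Klf2* and 1.28 for *Foxo6*. *KD2* minus *KD1* was -5.71 for *Foxn1*, -1.99 for *Klf5*, -1.69 for *Klf8*, -1.15 for *Klf6* and -1.01 for *Foxl1*. These were 13.9% of tested members in each direction, where 14.7% of all genes were called higher and 8.58% lower. All 3 cultures of *KD2* lay on 1 side of all 3 cultures of *KD1* in each of these members. They were picked by that same difference, and the share of all genes with no overlap was not counted.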

How the results depend on the processing

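The counts of called members were recomputed under 15 alternatives. With at least 10 counts in every culture, 0 members were called higher in *KD1*, 1 higher in *KD2* and 3 lower in *KD2* against *KD1*, because *Foxl1*, *Foxn1* and *Foxf1* were no longer tested. With no filter, 8 members were higher in *KD2* against *KD1*, since *Foxa3*, *Foxp2* and *Foxs1* were added. With each culture left out in turn, members called higher and lower numbered 2 to 2 and 4 to 5 in *KD1*, 3 to 3 and 5 to 6 in *KD2*, and 5 to 6 and 4 to 5 between *KD2* and *KD1*. Without *KD2* replicate 3 there were 5 lower in *KD2* (without *Klf13*) and 6 higher in *KD2* against *KD1* (with *Foxo1*). Without *WT* replicate 1, or without *KD1* replicate 2, there were 5 lower in *KD1* (with *Foxq1*). *Klf13* lost its call in *KD2* under 10 of the 15 alternatives (DESeq2, other size factors, the stricter filter, the block, only the 6 cultures compared, and without *WT* 2, *WT* 3 or any *KD2* culture), and its fold change lies at the limit. *Foxl1* lost its call between the lines under 5 of 15 (the stricter filter, the block, and without *KD1* 2, *KD1* 3 or *KD2* 2), and the cause was not tested. With the replicate block, members called lower were 5 in *KD2* (without *Klf13*) and 4 between *KD2* and *KD1* (without *Foxl1*), and the other counts were 2, 4, 3 and 5 as before. Same-numbered cultures of different lines correlated at -0.079 to 0.135 and differently numbered ones at -0.14 to 0.143, so no sign of pairing was seen. This cannot tell whether cultures shared a day or batch. Of the fold changes of named members, 749 kept their direction and their side of an adjusted p of 0.05, whatever their size, 5 no longer passed it (*Klf4* and *Klf10*) and 2 newly did (*Klf5* in *KD1*). Of the counts of called genes in the lists, 18 moved by over 1.5 times and 342 did not. Depth limits what can be said of members under 10 counts.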
